A study of Mus musculus with 4 samples.

Results

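The 8 chemokine receptor genes Ccr1, Ccr2, Ccr7, Ccr8, Cxcr3, Cxcr4, Cxcr6 and Cx3cr1 were followed through the leukocytes of 4 mouse single-cell RNA libraries. They were chosen by gene symbol, 8 of the 27998 genes listed, and read in barcodes with at least 1000 UMIs (unique molecular identifiers, each standing for 1 captured RNA molecule) of which at most 10% came from mitochondrial genes. Each library is a group of its own, labelled IgG, Ac, C or aC+C; the labels do not spell out what the names stand for, and no tumor line, agent, dose or number of mice per library is given in the sources used here. The sample titles call the cells tumor-infiltrating immune cells, and the age label reads 6 to 8 weeks for all 4 groups. Other labels, shared by all 4 groups, name goblet cells sorted by mCherry from RedMUC298trTg mice, a reporter strain, with C57Bl6 mice as the negative control for the sort. The goblet cell genes Muc2 and Tff3 stayed at or below 0.246 and 0.965 CPM (UMIs per 1000000 UMIs of a gate in a library) in every gate used here. Ptprc, which encodes the leukocyte antigen CD45, lay between 293 and 1108 CPM in the 7 leukocyte gates and between 3.02 and 18.1 CPM in the fibroblast gate. That gate was set by UMIs of Col1a1, Col1a2, Col3a1 and Dcn, and whether tumor cells fell in it was not tested.

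Chemokine receptors are proteins of the cell surface that couple to inhibitory G proteins and steer leukocytes along gradients of small secreted proteins, the chemokines. Ccr2 reads Ccl2 and Ccl7 and is known for bringing monocytes out of the bone marrow, Ccr1 reads several inflammatory CC chemokines, and Cx3cr1 reads Cx3cl1 and marks many monocytes, tissue macrophages and effector T cells. Cxcr3 reads Cxcl9 and Cxcl10 and Cxcr6 reads Cxcl16, and both are known on activated T cells. Ccr7 guides naive T cells and mature dendritic cells towards lymph nodes, Ccr8 is known on regulatory T cells of tumors, and Cxcr4 reads Cxcl12 and is found on most leukocytes.

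Of the 8 genes, 5 lie on chromosome 9 in the build GRCm38 of the annotation GENCODE vM21: Cx3cr1 at 119901616 to 120069879 on the minus strand, Ccr8 at 120092114 to 120094906 on the plus strand, Cxcr6 at 123806475 to 123811760 on the plus strand, Ccr1 at 123962124 to 123968692 on the minus strand and Ccr2 at 124101950 to 124113557 on the plus strand. Cxcr4 lies on chromosome 1 at 128588199 to 128592293 on the minus strand. Ccr7 lies on chromosome 11 at 99144196 to 99155077 on the minus strand, and Cxcr3 on chromosome X at 101731535 to 101734269 on the minus strand. The annotated span of Cx3cr1 overlaps other genes, among them Csrnp1 on the same strand with 12801 UMIs over the gates, and Cxcr6 overlaps Fyco1 on the other strand with 1683 UMIs. How reads were assigned by strand is not given in the sources used here, so part of the Cx3cr1 and Cxcr6 counts could belong to those neighbours.

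RefSeq promoter windows (build GRCm38.p6) matched 7 of the 8 receptors, all but Ccr7. The 250 bases before the start are shown, 5′ to 3′ on the gene's own strand, for a receptor of the macrophage and monocyte gates, one of the T cell gates and one found in all 7 gates. Capitals mark matches on either strand to GAGGAA (the core of PU.1 sites, a factor of myeloid cells) or to TGTGGT (the core of Runx sites); TCACACCT for T-box factors and AGATAA for GATA factors were searched in the same way, and no match overlapped another.
Ccr1, chr9:123968693-123968942, minus strand: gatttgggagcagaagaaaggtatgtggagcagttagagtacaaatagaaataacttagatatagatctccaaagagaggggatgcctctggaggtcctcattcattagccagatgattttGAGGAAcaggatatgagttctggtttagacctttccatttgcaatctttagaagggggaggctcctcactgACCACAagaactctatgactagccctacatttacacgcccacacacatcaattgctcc
Cxcr6, chr9:123806227-123806476, plus strand: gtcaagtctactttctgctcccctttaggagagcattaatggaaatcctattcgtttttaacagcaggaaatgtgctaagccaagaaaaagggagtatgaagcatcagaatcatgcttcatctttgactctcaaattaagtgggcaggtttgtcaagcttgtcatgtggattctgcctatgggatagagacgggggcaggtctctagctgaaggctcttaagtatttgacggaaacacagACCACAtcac
Cxcr4, chr1:128592300-128592549, minus strand: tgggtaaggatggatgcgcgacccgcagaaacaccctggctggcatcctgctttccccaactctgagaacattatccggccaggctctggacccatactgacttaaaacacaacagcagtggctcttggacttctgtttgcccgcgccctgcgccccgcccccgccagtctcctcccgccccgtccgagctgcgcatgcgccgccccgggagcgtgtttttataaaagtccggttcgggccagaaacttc
The Ccr1 window holds 1 match to the PU.1 letters and 1 to the Runx letters, the Cxcr6 window 1 to the Runx letters, and the Cxcr4 window none of the 4 motifs. Of 32851 promoter windows of this length, 23.3% hold the PU.1 letters, 14.0% the Runx letters, 9.99% the GATA letters and 1.12% the T-box letters, so such matches are common. Of the other windows, Cxcr3 has 1 PU.1 and 1 Runx match, Cx3cr1 1 Runx match, and Ccr2 and Ccr8 1 GATA match each.

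The libraries held 61519049 (IgG), 65973242 (Ac), 75665201 (C) and 75067320 (aC+C) UMIs, and 3436 to 4210 barcodes were kept in each, with medians of 10492 to 11594.5 UMIs. Pairs of libraries shared 2 to 7 kept barcodes. Kept barcodes were placed in gates by UMIs of marker genes that include none of the 8 receptors: CD8 T (566 to 1128 barcodes per library), CD4 T without Foxp3 UMIs (145 to 181), Foxp3 T (119 to 269), NK (234 to 532), monocyte (131 to 483), macrophage (263 to 689) and dendritic (40 to 65). A further 904 to 1595 barcodes per library met no gate and were left out. Barcodes of 1 to 50 UMIs, which hold free RNA rather than cells, carried 3.58% to 4.99% of the UMIs. With 1 library per group, no difference between groups can be tested. Differences between gates were tested across the 4 libraries with the library as a block. Their p-values therefore measure the spread between these libraries and average over the groups. Counting intervals are 95% and cover counting error only.

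**Figure D1:**
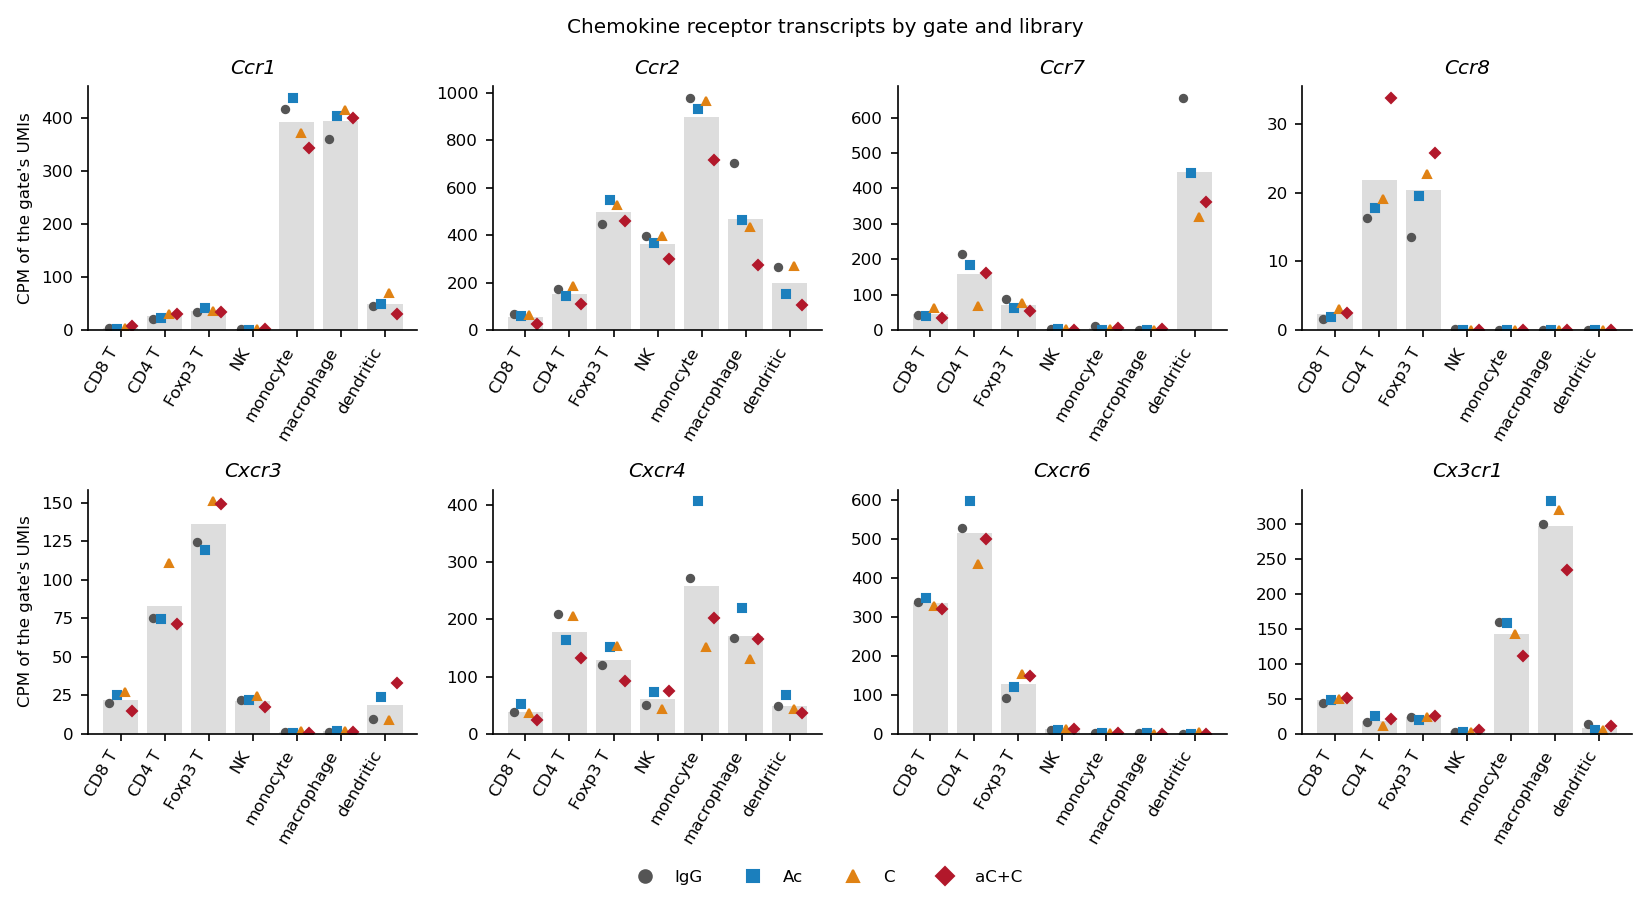
CPM of each receptor (y axis, linear, own scale per panel) in the 7 gates (x axis); points are the 4 libraries by shape and color, and grey bars are their mean. Ccr1 stands in monocytes and macrophages, Ccr7 is highest in dendritic barcodes, Ccr8 is seen in T gates, and Cxcr6 is highest in CD4 T (435 to 597 CPM) and CD8 T (321 to 349.6 CPM).

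Ccr2 was highest in monocytes, at 979.8, 933, 964.5 and 718 CPM in the IgG, Ac, C and aC+C libraries. It followed in Foxp3 T barcodes at 448, 549.9, 526 and 459.8 CPM, in macrophages at 704, 465, 437 and 276 CPM and in NK barcodes at 397, 366.5, 395 and 298 CPM, in the same order of libraries. No library's monocyte value overlapped any of the other gates, whereas Foxp3 T overlapped macrophages and macrophages overlapped NK barcodes. The dendritic gate (199 ± 82.6 CPM, SD over 4 libraries) overlapped CD4 T (153 ± 34.3), and CD8 T was lowest at 53.6 ± 19.4 CPM. Thinned to 1000 UMIs each, 44.1% to 56.4% of monocytes and 29.5% to 41.5% of Foxp3 T barcodes showed a Ccr2 UMI. The share was 0% to 0.538% in the fibroblast gate, taken as background. At this thinned depth, 0 of 97 fibroblast gate barcodes in IgG allows a share with a UMI of up to 3.09%. Unthinned shares were 85.9% to 93.5% of monocytes, 67.8% to 75.6% of Foxp3 T and 4.55% to 11.3% of fibroblast gate barcodes. Median depths were 7381 to 8685 UMIs for monocytes, 4444 to 5624 for Foxp3 T and 32929.5 to 44359 for the fibroblast gate.

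Ccr1 was carried by the myeloid gates. It stood at 360, 403, 414 and 400.3 CPM in macrophages and at 418, 438, 372 and 344 CPM in monocytes of IgG, Ac, C and aC+C. Those 2 gates overlapped each other and no other gate. Dendritic barcodes followed at 48.6 ± 16.6 CPM, overlapping Foxp3 T (36.3 ± 3.83 CPM), then CD4 T (26.0 ± 4.45), CD8 T (4.36 ± 2.16) and NK (1.29 ± 0.821), whose ranges did not overlap those of their neighbours. Free RNA held Ccr1 at 71.9 to 111.8 CPM, above the ranges of the dendritic, Foxp3 T and CD4 T gates. It lay far above CD8 T and NK barcodes. The part of free RNA in the Ccr1 levels of the dendritic and lymphoid gates was not tested. On average, free RNA also held Ccr2 at 220, Cxcr4 at 88.7, Ccr7 at 59.9 and Cx3cr1 at 58.4 CPM, each above the CD8 T mean. For Ccr2 it was above the CD4 T and dendritic means too, and for Cxcr4 above the NK and dendritic means. For Cx3cr1 it was above the Foxp3 T, CD4 T, dendritic and NK means, and for Ccr7 above the monocyte, NK and macrophage means. Cxcr6 in free RNA averaged 103.9 CPM (85.6 to 138.7), above the NK, monocyte, macrophage and dendritic means. Its range overlapped that of Foxp3 T barcodes. Cxcr3 in free RNA (18.9 CPM) was close to its CD8 T, NK and dendritic means. The part of free RNA in these levels was not tested either. The 10 myeloid marker genes summed to 42.1 to 115 CPM in CD4 T, 34.5 to 110.6 in Foxp3 T and 38.5 to 92.2 in CD8 T barcodes.

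Cx3cr1 was highest in macrophages, at 299.8, 332, 319 and 234 CPM in IgG, Ac, C and aC+C. Monocytes held 159.8, 158, 142 and 111 CPM. The 2 ranges did not overlap, and neither overlapped CD8 T, the next gate down, with 44.3, 47.4, 49.8 and 51.5 CPM. The CD8 T level was 48.2 ± 3.13 CPM (SD, n = 4 libraries). Foxp3 T (23.4 ± 2.35 CPM), CD4 T (18.4 ± 6.36) and dendritic barcodes (8.60 ± 4.46) overlapped from one to the next, as did dendritic and NK barcodes, the lowest at 3.36 ± 1.68 CPM.

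Cxcr6 was a T cell transcript in these libraries. CD4 T barcodes held 529, 597, 435 and 501 CPM, CD8 T barcodes 339, 349.6, 329 and 321 CPM, and Foxp3 T barcodes 91.9, 121, 154 and 148 CPM in IgG, Ac, C and aC+C. The 3 ranges were separate from one another in all 4 libraries. NK barcodes held 11.1 ± 1.76 CPM, and monocytes, macrophages and dendritic barcodes stayed at or below 2.99 CPM. Thinned to 1000 UMIs, 28.3% to 30.9% of CD8 T and 30.6% to 39.3% of CD4 T barcodes showed a Cxcr6 UMI. The share was 0% to 0.709% in the fibroblast gate. Unthinned, the shares were 83.9% to 90.6%, 59.4% to 69.4% and 0.538% to 3.09%. Median depths were 10721.5 to 12584 UMIs for CD8 T and 4341.5 to 5293.5 for CD4 T.

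Cxcr3, the receptor for the interferon-induced chemokines, followed another order among T cells. Foxp3 T barcodes held 124, 119, 151 and 149 CPM and CD4 T barcodes 74.8, 74.1, 111 and 71.4 CPM in IgG, Ac, C and aC+C, with no overlap. CD8 T (21.6 ± 5.46 CPM), NK (21.4 ± 3.06) and dendritic barcodes (18.8 ± 11.7) could not be separated. Macrophages and monocytes stayed at or below 1.85 CPM.

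Ccr8 had the fewest UMIs of the receptors, 293 over all gates and libraries. CD4 T barcodes held 16.4, 17.8, 19.0 and 33.8 CPM and Foxp3 T barcodes 13.6, 19.6, 22.7 and 25.7 CPM in IgG, Ac, C and aC+C. The 2 gates overlapped, and both lay above CD8 T (2.28 ± 0.589 CPM). NK barcodes showed 1 UMI, and the monocyte, macrophage and dendritic gates none.

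Ccr7, the lymph node receptor, was highest in dendritic barcodes, at 656, 443, 319.5 and 363 CPM in IgG, Ac, C and aC+C. CD4 T barcodes held 216, 183, 67.6 and 162 CPM, Foxp3 T 87.7, 61.5, 77.5 and 55.4 CPM and CD8 T 42.8, 39.6, 62.3 and 35.4 CPM. The dendritic range was clear of the others, while each T gate overlapped the next. Within the dendritic gate, Ccr7 lay mostly in barcodes with at least 3 UMIs of the migratory markers Fscn1, Cacnb3, Il4i1 and Socs2, which held 2369, 3208, 3571 and 4903 CPM in 15, 12, 4 and 4 barcodes. The same barcodes held no Ccr1 UMI and 0 to 4 Ccr2 UMIs per library. Type 2 dendritic barcodes (13 to 24 per library, by Cd209a, Clec10a and Mgl2) instead held Ccr2 at 571, 416, 561 and 370.1 CPM and Ccr1 at 109, 166, 149.8 and 147 CPM, and type 1 barcodes (12 to 26, by Xcr1 and Clec9a) held Cxcr3 at 19.2, 42.0, 18.5 and 44.6 CPM.

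Cxcr4 was spread over all 7 gates. Monocytes held 272, 407, 151 and 202 CPM, CD4 T 209, 163, 206 and 133 CPM and macrophages 167.5, 221, 131 and 166 CPM in IgG, Ac, C and aC+C. The order monocyte, CD4 T, macrophage and Foxp3 T (129.5 ± 28.8 CPM) could not be resolved, since each gate overlapped the next. All 4 lay above NK (60.5 ± 16.0 CPM), dendritic (48.5 ± 13.3) and CD8 T barcodes (37.6 ± 11.2), which overlapped one another.

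The differences between gates were fitted on 28 gate-by-library sums of 10580 genes (edgeR quasi-likelihood test, Benjamini-Hochberg adjusted p under 0.05). Many genes differ between cell types, so each count of receptors stands beside the share of all genes that passed.

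**Figure D2:**
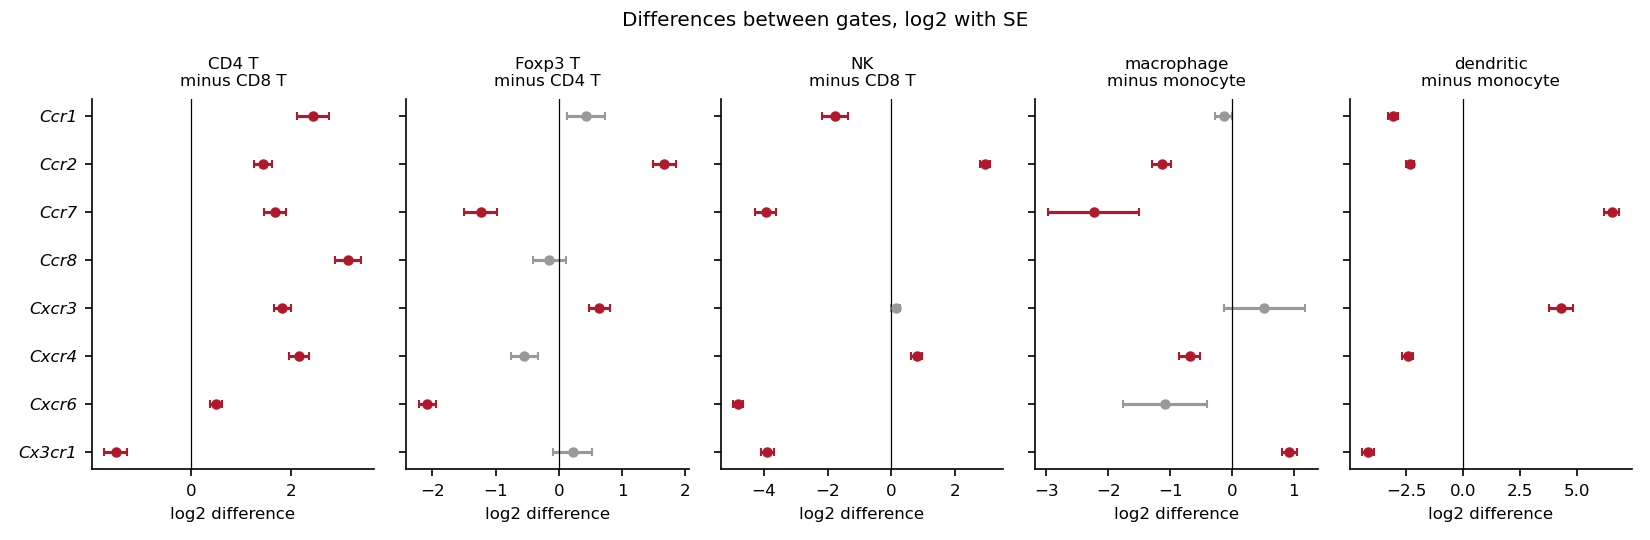
Log2 difference between 2 gates (x axis, own scale per panel) with its standard error for each receptor (y axis), in 5 of the 6 contrasts; red points have an adjusted p under 0.05 (edgeR) and grey points do not. Receptors with 3 or fewer UMIs in either gate are not drawn. Cxcr6 lies left of 0 in Foxp3 T minus CD4 T (-2.08) and in NK minus CD8 T (-4.81), while Ccr2 lies right of 0 in both (1.67 and 2.94).

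CD4 T barcodes without Foxp3 UMIs differed from CD8 T barcodes in all 8 receptors, 7 higher and 1 lower, where 42.4% of genes passed. Ccr8 was higher by 3.13 ± 0.27 (log2 ± SE, adjusted p = 1.20e-08, edgeR), Cxcr4 by 2.15 ± 0.20 (adjusted p = 7.65e-10) and Cxcr3 by 1.82 ± 0.17 (adjusted p = 7.60e-10), each in 4 of 4 libraries. Ccr1 (2.43), Ccr7 (1.68), Ccr2 (1.44) and Cxcr6 (0.50 ± 0.11, adjusted p = 6.85e-04, edgeR) were higher too, and Cx3cr1 was lower, at -1.50 ± 0.22 (adjusted p = 3.12e-06, edgeR). Median depth was 4341.5 to 5293.5 UMIs in CD4 T and 10721.5 to 12584 in CD8 T barcodes. In CD8 T, 29.6% to 38.95% of barcodes per library held at least 2 UMIs of Mki67 and Top2a. The part of depth and proliferation in these differences was not tested. With TMM scaling 1984 genes were higher and 2502 lower in CD4 T; with DESeq2 size factors the split was 2413 and 1968, and the 8 calls and their directions held under both. Of 10 homing and retention genes, 9 were tested: 6 were higher in CD4 T and 3 lower (median log2 difference 1.41 against -0.06 over all genes), among them Itgb7, an integrin chain (2.75), Klf2, a factor that drives exit from tissue (1.83), and Cd69, a retention molecule (1.41), all higher, and Selplg, a selectin ligand, lower (-0.34).

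Between the CD4 T and Foxp3 T gates the receptors split. The Foxp3 T gate asked for no Cd4 UMI. Cd4 stood at 155.6 to 173.3 CPM there and at 409.3 to 483.9 CPM in CD4 T. Foxp3 T barcodes are the regulatory T cells by their defining gene. A missed Foxp3 UMI can place a barcode in CD4 T instead. Il2ra, Ikzf2 and Ctla4 stood at 121 to 174, 185 to 289 and 581 to 835 CPM in CD4 T. In Foxp3 T they stood at 640 to 774, 1263 to 1626 and 1570 to 1934 CPM. The part of missed Foxp3 UMIs in the contrast was not tested. Foxp3 T barcodes differed from CD4 T barcodes in 4 of 8 receptors, 2 higher and 2 lower, where 17.1% of genes passed. Cxcr6 was lower by 4.23-fold (log2 -2.08 ± 0.13, adjusted p = 2.88e-12, edgeR, 4 of 4 libraries) and Ccr2 higher by 3.18-fold (1.67 ± 0.18, adjusted p = 5.81e-08, 4 of 4). Cxcr3 was higher by 0.64 ± 0.17 (adjusted p = 6.41e-03, edgeR, 4 of 4). Ccr7 was lower by -1.24 ± 0.27 (adjusted p = 1.09e-03, edgeR) in 3 of 4 libraries and higher in C, where CD4 T barcodes held 67.6 CPM. Cxcr4 (-0.54, adjusted p = 7.95e-02), Ccr1 (0.43, 3.77e-01), Cx3cr1 (0.22, 7.14e-01) and Ccr8 (-0.15, 7.87e-01) did not pass in the edgeR fit. Among 16 other chemokine receptors, 9 were tested and 3 were higher in Foxp3 T and none lower; Ccrl2, an atypical receptor, rose by 1.53.

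NK barcodes differed from CD8 T barcodes in 7 of 8 receptors, 2 higher and 5 lower, where 41.6% of genes passed. Ccr2 was 7.68-fold higher in NK (log2 2.94 ± 0.17, adjusted p = 1.52e-14, edgeR) and Cxcr4 1.73-fold higher (0.79 ± 0.18, adjusted p = 8.06e-04). Cxcr6 was 28.1-fold lower (-4.81 ± 0.15, adjusted p = 2.12e-20, edgeR), Ccr7 15.4-fold lower (-3.94 ± 0.34) and Cx3cr1 14.8-fold lower (-3.89 ± 0.20). With barcodes that also held dendritic markers kept, a choice added after seeing the data, mean Ccr7 was 15.3 CPM in NK instead of 2.44, and 92.9 CPM in CD8 T, above the 35.4 to 62.3 CPM of the 4 libraries without them. The log2 difference in Ccr7, NK minus CD8 T, was then -2.40 (adjusted p = 2.42e-05, edgeR). Ccr1 was lower by -1.76 ± 0.41 from 26 UMIs in NK, and Ccr8 rested on 1 UMI in NK against 110 in CD8 T. Cxcr3 was not separated (0.13 ± 0.15, adjusted p = 0.509, edgeR), higher in 2 libraries and lower in 2. Rgs1, a regulator that ends G protein signals, was higher in NK by 1.42, and Rgs2 by 0.83; Gnai2 (-0.14) and Rac2 (-0.26), which act below the receptors, were lower, among 3 higher and 6 lower of 14 signalling genes tested.

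Macrophages differed from monocytes in 4 of 8 receptors, 1 higher and 3 lower, where 48.3% of genes passed. Ccr2 was 2.2-fold lower in macrophages (log2 -1.14 ± 0.15, adjusted p = 6.11e-07, edgeR), Cxcr4 1.61-fold lower (-0.69 ± 0.17, adjusted p = 1.39e-03) and Cx3cr1 1.9-fold higher (0.93 ± 0.12, adjusted p = 2.37e-07), each in 4 of 4 libraries. Ccr7 passed from 32 against 43 UMIs (-2.24 ± 0.74, adjusted p = 1.38e-02, edgeR); in IgG 1 barcode held 92.3% of the monocyte UMIs of Ccr7, and without that library the difference was -1.84 (adjusted p = 7.56e-02, edgeR), without aC+C -2.64 (7.22e-02). Ccr1 was not separated (-0.14 ± 0.14, adjusted p = 0.451, edgeR). Of 15 ligands in the files, 14 were tested: 6 were higher in macrophages and 1 lower (median 0.58 against 0.02 over all genes), the lower one being Cxcl10 (-1.58).

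Dendritic barcodes differed from monocytes in 6 of 8 receptors, 2 higher and 4 lower, where 47.9% of genes passed, and from macrophages in 6 of 8, 2 higher and 4 lower, where 44.5% passed. The 2 contrasts share the dendritic sums. Against monocytes Ccr7 was higher by 6.52 ± 0.33 and Cxcr3 by 4.32 ± 0.52, and Cx3cr1 (-4.15 ± 0.26), Ccr1 (-3.08 ± 0.20), Cxcr4 (-2.42 ± 0.24) and Ccr2 (-2.31 ± 0.18) were lower, in 4 of 4 libraries each. Against macrophages the same receptors gave 8.76 (Ccr7), 3.79 (Cxcr3), -5.08 (Cx3cr1), -2.94 (Ccr1), -1.73 (Cxcr4) and -1.18 (Ccr2). Ccr8 had no UMI in the 3 gates and Cxcr6 2 UMIs in dendritic barcodes.

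**Figure D3:**
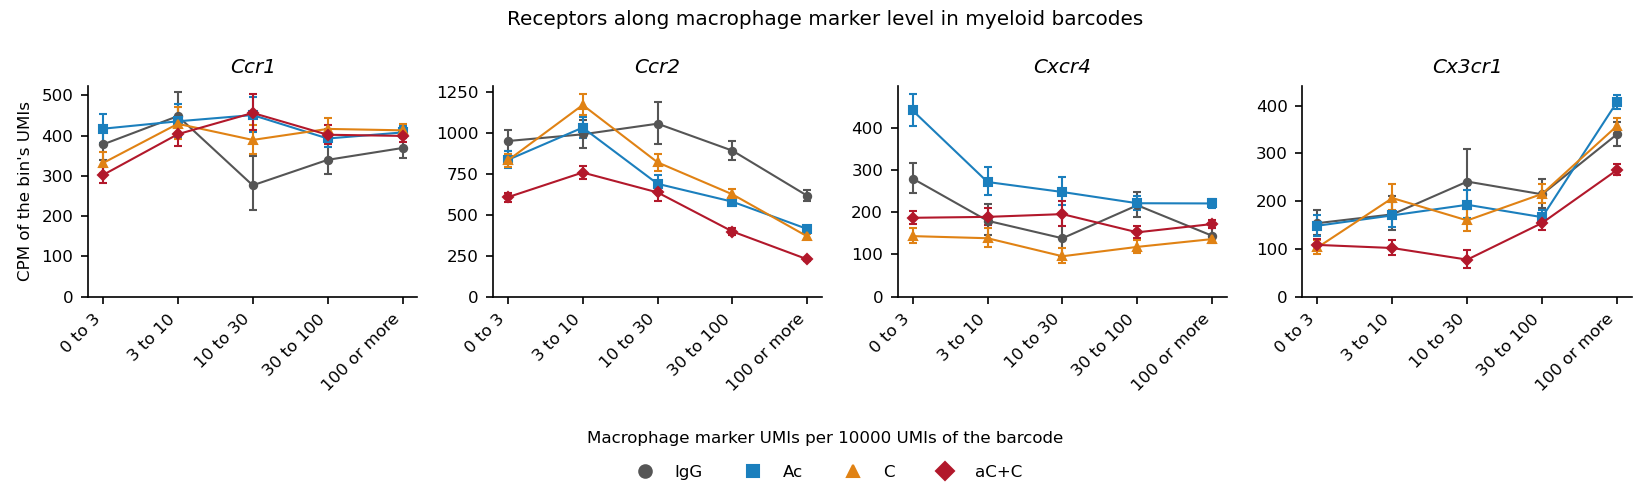
CPM of Ccr1, Ccr2, Cxcr4 and Cx3cr1 (y axis, linear, from 0) in barcodes with myeloid markers, in 5 bins of macrophage marker UMIs per 10000 UMIs of the barcode (x axis); points are libraries and error bars 95% counting intervals. Ccr2 is lowest in the last bin and Cx3cr1 highest there in all 4 libraries, and aC+C (red) has the lowest Ccr2 in every bin.

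The gates cut a continuum of myeloid barcodes, so the same receptors were read in 5 bins of macrophage marker level, a description added after seeing the data. Ccr2 was lowest in the last bin in all 4 libraries, at 615, 413, 367 and 228 CPM in IgG, Ac, C and aC+C, against 949, 834, 831 and 606 CPM in the first bin. The course was not steady, since Ccr2 was higher in the second bin (990.1, 1031, 1169 and 757 CPM) than in the first in each library. Cx3cr1 was highest in the last bin in all 4, at 340.3, 408, 358 and 265 CPM, against 154, 149, 103 and 108 CPM in the first. Bins held 31 to 455 barcodes.

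CD8 T barcodes were split by the inhibitory receptor genes Pdcd1 and Havcr2, which rise together in exhausted T cells: 251 to 585 barcodes per library had UMIs of both and 76 to 112 of neither. Barcodes with both had medians of 12622 to 15657.5 UMIs, those with neither 5219.5 to 7169.5, so depth moved with the split; a barcode of few UMIs more often misses both genes, and the part of depth in the differences was not tested.

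**Figure D4:**
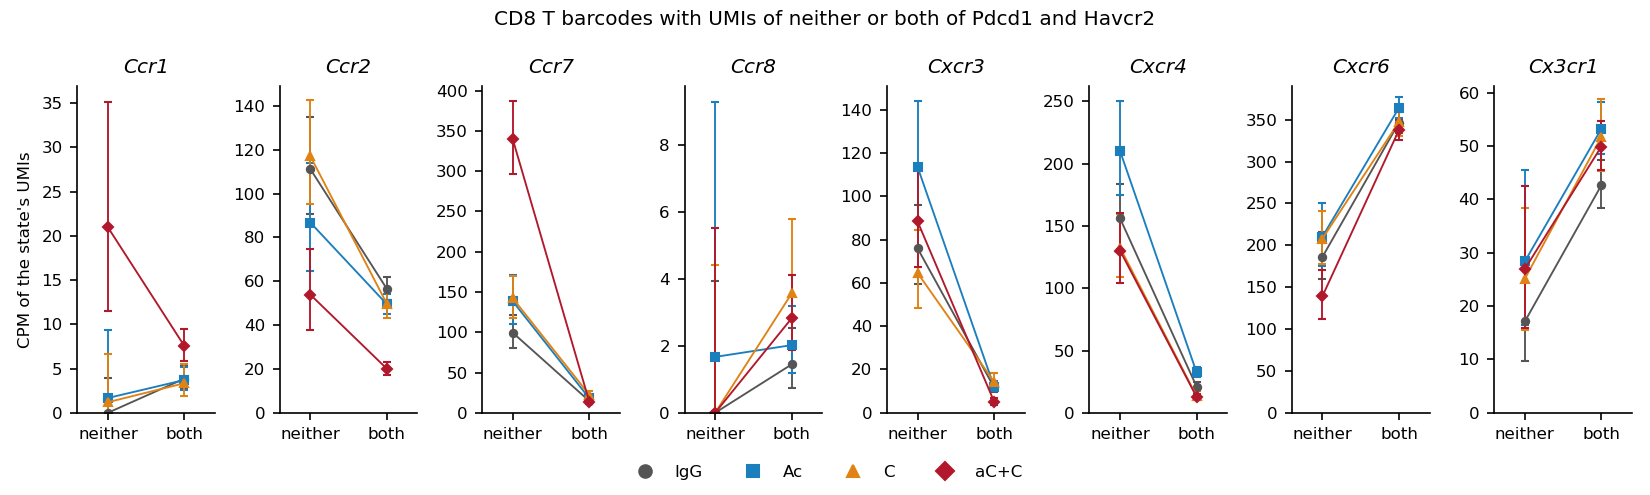
CPM of each receptor (y axis, linear, from 0, own scale per panel) in CD8 T barcodes with UMIs of neither or both of Pdcd1 and Havcr2 (x axis); points are the 4 libraries, joined by lines, with 95% counting intervals. Ccr7, Cxcr3 and Cxcr4 fall steeply from neither to both in all 4 libraries, while Cxcr6 and Cx3cr1 rise.

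Ccr7 stood at 99.5, 139, 142 and 339.9 CPM in barcodes with neither and at 14.6, 18.0, 22.3 and 13.7 CPM in barcodes with both, in IgG, Ac, C and aC+C. The 2 groups did not overlap, and aC+C was the highest of the 4 with neither and the lowest with both. Of the 7 receptors tested, 6 differed, 2 higher and 4 lower in barcodes with both, where 29.4% of 9020 genes passed. Ccr7 was 11.1-fold lower (log2 -3.47 ± 0.25, adjusted p = 6.79e-08, edgeR), Cxcr3 8.89-fold (-3.15 ± 0.23, adjusted p = 8.36e-08) and Cxcr4 8.76-fold lower (-3.13 ± 0.13, adjusted p = 3.72e-10). Ccr2 was 2.3-fold lower (-1.20 ± 0.13, adjusted p = 2.73e-06, edgeR). Cxcr6 was 1.73-fold higher (0.79 ± 0.09, adjusted p = 1.07e-05, edgeR) and Cx3cr1 1.89-fold higher (0.91 ± 0.16, adjusted p = 3.99e-04). Ccr1 did not pass (-0.24, adjusted p = 0.805, edgeR), and Ccr8 had 1 UMI in barcodes with neither and was not tested.

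The homing list moved with Ccr7: 0 of its 9 tested genes were higher and 7 lower in barcodes with both (median -2.43 against -0.01 over all genes), among them Klf2 (-3.13), Itgb7 (-2.43), Cd69 (-1.51) and Selplg (-0.42). Mki67, a proliferation gene, stood at 223 ± 19.8 CPM with both and 64.7 ± 23.6 with neither, so proliferation moved with the split, and its part in the differences was not tested. In barcodes with at least 2 UMIs of Mki67 and Top2a against those with none, Cxcr6 was 269 ± 8.54 against 416 ± 33.2 CPM, Cxcr3 10.5 ± 4.21 against 37.1 ± 6.36 and Ccr7 28.1 ± 12.0 against 69.5 ± 28.6. Cx3cr1 was at 39.8, 53.1, 53.3 and 52.3 CPM in cycling and at 57.1, 35.4, 55.1 and 46.75 CPM in non-cycling barcodes of IgG, Ac, C and aC+C. The libraries went different ways: cycling barcodes were lower in IgG and higher in Ac with intervals apart, and the intervals overlapped in C and aC+C.

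The receptors were also read together in single CD8 T barcodes of at least 5000 UMIs, each thinned to 5000 UMIs. Barcodes with fewer UMIs were left out, here and in the myeloid gates below. CD8 T barcodes with neither Pdcd1 nor Havcr2 had medians of 5219.5 to 7169.5 UMIs, near this limit. Ccr7 was seen in 5.71%, 5.19%, 8.74% and 4.36% of barcodes with a Cxcr6 UMI and in 18.9%, 16.2%, 26.4% and 16.5% of those without, in IgG, Ac, C and aC+C. Cxcr3 was seen in 17.45%, 26.5%, 27.5% and 22.7% of barcodes with a Ccr2 UMI and in 7.68%, 11.8%, 8.90% and 5.56% of those without. In each library the Clopper-Pearson intervals of both pairs of shares were apart, and Ccr7 and Cxcr6 tended to lie in different barcodes while Cxcr3 and Ccr2 tended to share them. Cx3cr1 showed no such difference by Cxcr6: it was seen in 18.9%, 16.1%, 18.5% and 20.5% of barcodes with a Cxcr6 UMI and in 18.0%, 16.6%, 18.6% and 13.7% of those without, with overlapping intervals in all 4. In monocytes, Cx3cr1 was seen in 36.9%, 29.7%, 34.5% and 25.4% of barcodes with a Ccr1 UMI and in 53.1%, 57.4%, 44.2% and 44.8% of those without, with intervals apart in Ac and aC+C and overlapping in IgG and C. In macrophages the shares lay the other way, at 61.4%, 61.6%, 59.9% and 49.6% with a Ccr1 UMI and 51.0%, 57.1%, 55.3% and 49.1% without, with overlapping intervals in all 4.

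**Figure D5:**
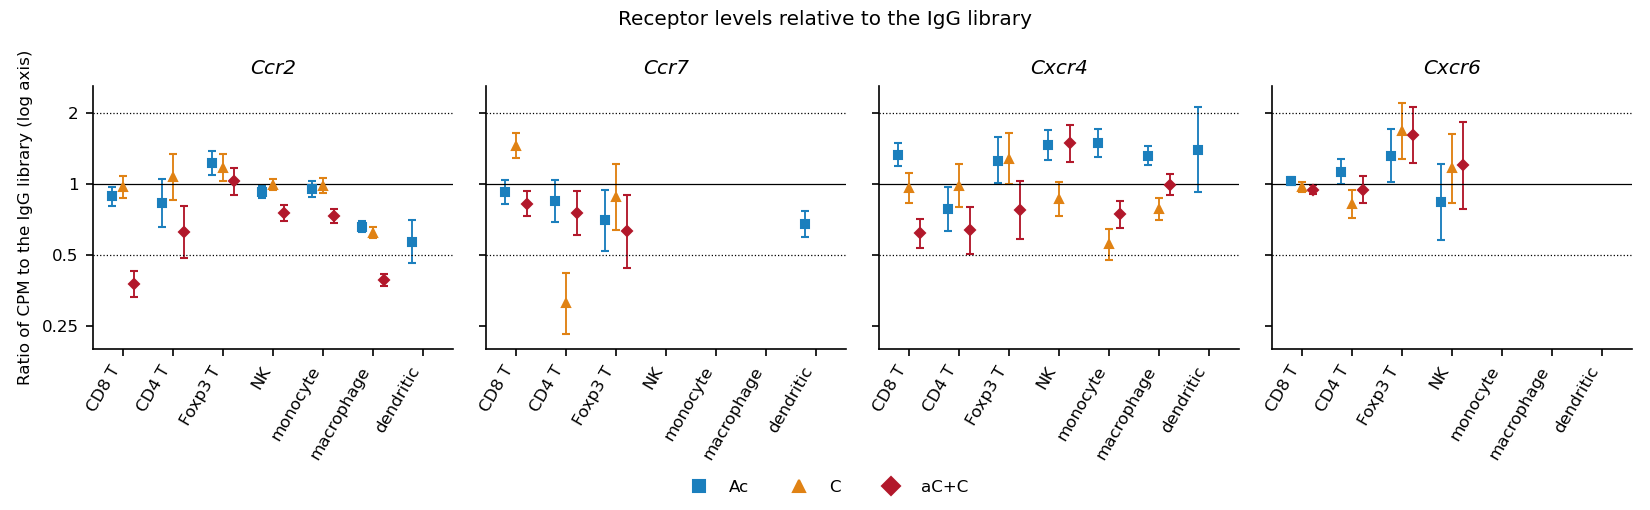
Ratio of CPM to the IgG library (y axis, log axis) for Ccr2, Ccr7, Cxcr4 and Cxcr6 by gate (x axis) in the Ac, C and aC+C libraries, with 95% intervals for counting error; dotted lines mark ratios of 0.5 and 2. Pairs with fewer barcodes or UMIs than the rule asks for are not drawn. Ccr7 in CD4 T of C and Ccr2 in CD8 T and macrophages of aC+C lie below the lower dotted line.

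The Ac, C and aC+C libraries were set against IgG gate by gate, with 1 library a group and therefore no test. The 3 comparisons share the IgG library. A pair of gene and gate was ranked from 100 UMIs over both libraries and 100 barcodes in each (50 for Foxp3 T and dendritic barcodes), which left the dendritic gate out of C and aC+C with 47 and 40 barcodes. A ratio of at least 2 either way was counted. In Ac, 0 of 32 receptor-gate pairs passed; over all ranked genes 0.508% passed in CD8 T, 0.908% in CD4 T, 0.575% in Foxp3 T, 0.122% in NK, 0.614% in monocytes, 1.26% in macrophages and 2.48% in dendritic barcodes. The highest and lowest ratios in Ac were Cxcr4 in monocytes (407 against 272 CPM, ratio 1.495, interval 1.31 to 1.71) and Ccr2 in dendritic barcodes (151 against 265 CPM, 0.569, 0.462 to 0.701). The dendritic mix moved with this ratio: type 1 barcodes were 26 of 65 in Ac and 12 of 53 in IgG, with Xcr1 at 354 against 138 CPM in the whole gate, and they held Ccr2 at 49.7 and 28.8 CPM. Within type 2 barcodes Ccr2 was 416 CPM (349.8 to 491) in Ac and 571 CPM (486.5 to 666) in IgG, and the part of the mix in the ratio was not tested.

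In C, 1 of 28 pairs passed: Ccr7 in CD4 T stood at 67.6 CPM against 216 in IgG, a ratio of 0.313 (0.232 to 0.418). The shares of all genes were 0.712% in CD8 T, 1.4% in CD4 T, 1.21% in Foxp3 T, 0.416% in NK, 1.19% in monocytes and 1.3% in macrophages. Ccr7 in CD8 T of the same library lay the other way, at 62.3 against 42.8 CPM (1.45, 1.29 to 1.64), but at 0.868 with barcodes that also held dendritic markers kept. Cxcr4 in monocytes was 151 against 272 CPM (0.555, 0.477 to 0.647) and Cxcr6 in Foxp3 T 154 against 91.9 CPM (1.68, 1.28 to 2.21).

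In aC+C, 3 of 29 pairs passed, 2 lower and 1 higher, where 1.06% of genes passed in CD8 T, 1.78% in CD4 T, 0.965% in Foxp3 T, 0.83% in NK, 1.64% in monocytes and 1.83% in macrophages. Ccr2 in macrophages was 276 against 704 CPM (0.392, 0.371 to 0.415) and Ccr2 in CD8 T 25.0 against 66.3 CPM (0.376, 0.332 to 0.426). Ccr1 in CD8 T was 7.58 against 3.36 CPM (2.26, 1.58 to 3.26); this ratio turned to 0.911 with barcodes that also held dendritic markers kept. Ccr2 also lay below IgG in CD4 T (0.627), monocytes (0.733) and NK barcodes (0.75) of aC+C, with intervals under 1, and at 1.03 (0.898 to 1.17) in Foxp3 T. In macrophages it lay below IgG in Ac (0.66) and C (0.62) as well, so IgG was the highest of the 4 libraries there and aC+C the lowest.

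Markers of other cells were read beside these ratios. In macrophages all 6 monocyte markers were seen and summed to 1574, 852, 946 and 1405 CPM in IgG, Ac, C and aC+C, and their part in the Ccr2 levels was not tested. In monocytes the neutrophil marker S100a8 stood at 76.3, 96.9, 313 and 734 CPM in the same order of libraries. Csf3r, another neutrophil marker, stood at 64.5, 69.6, 67.4 and 67.5 CPM. Their part in the Ccr2 levels of monocytes was not tested. In CD8 T barcodes all 5 NK markers were seen, summing to 448, 374, 485 and 411 CPM. In the 123, 232, 104 and 176 CD8 T barcodes without any of them, Ccr2 stood at 76.0, 95.8, 99.1 and 38.1 CPM, a ratio of aC+C to IgG of 0.501 (0.345 to 0.724), and the ratio of Ccr1 was 13.1 (2.09 to 545) from 1 UMI in IgG. All 10 myeloid markers were seen in CD8 T barcodes too, summing to 38.5, 57.7, 92.2 and 80.1 CPM. Without the barcodes that held any, Ccr2 stood at 66.8, 66.9, 63.0 and 35.0 CPM, a ratio of 0.524 (0.431 to 0.632), and Ccr1 at 1.75 (0.943 to 3.24) from 22 against 25 UMIs, an interval that includes 1. The Ccr2 ratios in CD8 T of aC+C therefore fell short of the 2-fold rule in both subsets. Their intervals lie on both sides of that cut, so which side Ccr2 belongs to is not settled. Ccr1 had too few UMIs to be ranked in either subset, with 1 in IgG and 19 in aC+C without NK markers. The rule was therefore not applied to Ccr1 there.

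The ligands of the receptors were named here for that pairing after their values were seen; some were highest in the gate of their receptor and others not. Cxcl16, the ligand of Cxcr6, was highest in macrophages at 737 ± 7.03 CPM (SD, n = 4 libraries), followed by dendritic barcodes (330.4 ± 70.8) and monocytes (224 ± 41.8), and stayed at or below 2.91 CPM on average in the T and NK gates. Ccl2, a ligand of Ccr2, had its highest mean of the 7 gates in monocytes, as Ccr2 did. It stood at 841.5 ± 209 CPM there, 594 ± 37.9 in macrophages and 3340 ± 1502 CPM in the fibroblast gate. Monocytes and macrophages were not separated for Ccl2 (macrophage minus monocyte, log2 -0.60, adjusted p = 1.49e-01, edgeR). Ccl7, the other Ccr2 ligand named above, was highest in macrophages instead, at 360 ± 89.1 CPM against 78.1 ± 34.2 in monocytes. Ccl1, a ligand of Ccr8, was highest in CD4 T at 434 ± 143 CPM, against 4.07 ± 6.38 in Foxp3 T (log2 difference -7.08, adjusted p = 1.04e-10, edgeR). The mean of Ccr8 was highest in CD4 T too, but Ccr8 was not separated from Foxp3 T (log2 -0.15, adjusted p = 7.87e-01, edgeR). Cxcl9, a ligand of Cxcr3, was highest in macrophages (522 ± 117 CPM) and Cxcl10 in monocytes (1169 ± 321 CPM). Cx3cl1 was at 92.5 ± 19.3 CPM in the fibroblast gate and at most 10.8 ± 9.85 in the leukocyte gates. Cxcl12 was at 9.82 ± 6.95 CPM in the fibroblast gate. Ccl19, Ccl21a and Cxcl11 were not analysed here.

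Some genes followed a receptor closely over the 28 gate-by-library sums (9560 genes with at least 500 UMIs, Pearson r of log2 of CPM plus 10). This is a description over sums that share libraries and cell types. Themis (0.987), Pdcd1 (0.98) and Ubash3a (0.98) were most like Cxcr6, Rab5c (0.978), Oasl2 (0.977) and Ctss (0.977) most like Ccr1, and Trib2 (0.973), Podnl1 (0.97) and Slamf1 (0.953) most like Ccr8. Chd3 (0.959) led for Cxcr3, Ssh2 (0.928) for Cxcr4, Pacsin1 (0.919) for Ccr7 and Sypl (0.871) for Ccr2. Among the receptors themselves the highest values joined Cxcr3 with Ccr8 (0.867), Ccr1 with Cx3cr1 (0.8) and Ccr8 with Cxcr6 (0.753), and the lowest joined Cxcr3 with Cx3cr1 (-0.604) and Ccr2 with Cxcr6 (-0.598).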

How the data were processed

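RNA of single cells in 4 mouse libraries was captured with 10x Genomics single cell 3' reagents, version v2 per the labels' protocols. The authors deposited raw UMI counts per gene and barcode, made with Cell Ranger 2.1.1 against mm10 per the submitters' processing notes; the matrix headers name software 3.0.2. The deposited barcode and gene lists hold names, a kind of data that is other than a measurement. No gene annotation release or strand setting is named in the sources used here.

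The matrices list 6794880 barcodes per library, so cells had not been selected. Barcodes with at least 1000 UMIs and at most 10% mitochondrial UMIs were kept, with no doublet removal in the reported values (Scrublet, scanpy 1.11.5, removed 94 to 142 barcodes per library in an alternative). Gates were set by UMIs of marker genes, with thresholds chosen after marker levels were seen; barcodes with at least 3 UMIs of dendritic markers, or at least 10 of H2-Ab1 and H2-Eb1 per 10000, were left out of the T and NK gates, and those with at least 3 UMIs of NK markers out of the CD4 T, Foxp3 T, monocyte, macrophage and dendritic gates but not of CD8 T. UMIs were summed per gate and library. Differences between gates were tested with edgeR 4.0.16 (quasi-likelihood, TMM, library as block) on sums of at least 20 barcodes in R 4.3.3, and DESeq2 1.42.0 was an alternative; the scripts were tested on simulated data. Ratios between libraries carry exact conditional binomial intervals (scipy 1.17.1) at 95%, which cover counting error only. Examples from the other gene lists were the members with the highest summed CPM; some items are not reported here. The receptors, lists and tests were chosen with earlier results of these data known.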

Additional observations from a re-analysis of the deposited data

Results flagged for a closer look

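In IgG, Ac, C and aC+C, outside the 7 gates, a small B cell gate (4, 18, 12 and 65 barcodes in those libraries) held Ccr7 at 377, 684, 328 and 302 CPM. It held Cxcr4 at 375, 367 and 298 CPM in the last 3 of them. These levels stood out because the gate entered no comparison and because they lay above those of free RNA and of the fibroblast gate in the same libraries. The Ccr7 values rest on 15, 51, 17 and 84 UMIs and the Cxcr4 values on 28, 19 and 83 UMIs. Barcodes with NK markers were not left out of the B cell gate. It held the NK marker Ncr1 at 0, 147, 212 and 3.59 CPM in IgG, Ac, C and aC+C. The part of other cells in these levels was not tested.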

How the results depend on the processing

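Of 578 values of the receptors in gate contrasts under the alternatives, 571 kept their direction and side of the threshold, 4 lost and 1 gained the call, and 2 turned direction. Ccr7, macrophage minus monocyte, lost its call in 4: without IgG or aC+C (leave-one-out range -2.64 to -1.84), at most 5% mitochondrial UMIs (-1.77, adjusted p = 5.69e-02, edgeR) and with barcodes of dendritic or NK markers kept (-1.07, adjusted p = 2.65e-01). Cxcr4, Foxp3 T minus CD4 T, gained it with no filter on low counts (-0.57, adjusted p = 4.24e-05, edgeR). Ccr8, Foxp3 T minus CD4 T, which passed in no setting, ranged from -0.247 to 0.00601 when each library was left out, and Cxcr3, macrophage minus monocyte, turned to -0.0725 with the marked barcodes kept. The cause was not tested.

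Without the replicate block of library, 4281 genes passed in CD4 T minus CD8 T, 1685 in Foxp3 T minus CD4 T, 3901 in NK minus CD8 T, 4784 in macrophage minus monocyte, 4927 in dendritic minus monocyte and 4565 in dendritic minus macrophage. The 42 receptor values compared, called or not, kept their direction and side of the threshold. The block rests on gates of 1 library coming from 1 suspension; replicate numbers in the labels pair nothing.

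Ratios to IgG were less stable. With the marked barcodes kept, a choice added after seeing the data, 3 of 32 receptor ratios passed in Ac (Ccr7 in CD8 T 0.469, CD4 T 0.448 and Foxp3 T 0.429), Ccr7 in aC+C was 0.352 in CD8 T and 0.373 in Foxp3 T, the mean Ccr7 level of CD8 T was 92.9 CPM, and Ccr1 in CD8 T of aC+C turned to 0.911. As a mean over cells, 1 ratio passed in Ac and 2 in C, among them Ccr7 in Foxp3 T (0.401 and 0.499). Ccr2 in CD8 T of aC+C was then 0.479. Without barcodes holding NK markers, Ccr1 in CD8 T of aC+C was 13.1 from 1 UMI in IgG, and Ccr2 in CD8 T 1.26 in Ac and 1.3 in C.

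Few UMIs limit Ccr8, few barcodes (4 to 26 per library) the dendritic subsets, and 1 library per group every ratio.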
